A study of Mus musculus with 8 samples.

Results

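The genes described here encode 9 transcription factors of the myeloid lineage: Spi1, Cebpa, Cebpb, Cebpd, Klf2, Klf4, Klf6, Egr1 and Egr2. They were picked by gene symbol from the annotation of the array's probes, 9 of 19084 genes in all, and each of the 9 was read by 1 probe. RNA came from RAW264.7 cells, a mouse macrophage-like line, that stably carried a lentiviral shRNA and had been selected with puromycin. The shLuc cells expressed an shRNA against luciferase, which has no target in mouse cells, and the shDab2 cells an shRNA against Dab2 (clone B in the study's methods), an endocytic adaptor protein. Both lines received PBS or lipopolysaccharide (LPS, 100 ng/ml, 6 h), which binds the receptor TLR4, which makes 4 groups, with 2 one-colour arrays for each and 8 in all. All groups carried a lentiviral vector, and there was 1 shDab2 line, so differences between the lines cannot be told apart from differences between separately selected populations.

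PU.1, the product of Spi1, and the C/EBP proteins open and activate the regulatory elements that define granulocytes, monocytes and macrophages. KLF proteins bind GC-rich DNA through zinc fingers and tune monocyte differentiation and inflammatory activation, and EGR proteins are zinc finger factors that are induced within a short time of receptor signaling. In macrophages exposed to LPS, these factors act beside NF-kB, AP-1 and interferon regulatory factors.

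Promoter sequences are shown for 3 of the genes that differed between the lines in their level or LPS response, Egr2, Klf4 and Cebpa, because the Egr2 window holds elements of immediate-early promoters and the others hold motifs of the EGR proteins themselves. Windows were taken from RefSeq (GRCm38.p6), each 300 bases, and those of 6 of the 9 genes were searched. No window of Spi1, Cebpd or Egr1 was searched. In the Egr2 window, 1 of 5 for this gene, at chr10:67537619-67537918 on the plus strand, capitals mark a CArG box, the element bound by serum response factor, and 2 copies of TGACG or its reverse complement, the core of the cyclic AMP response element. Of the 5, this window was picked for the most matches to these 2 elements, with the lowest start among ties. Its holding them was therefore set by the choice.
Egr2: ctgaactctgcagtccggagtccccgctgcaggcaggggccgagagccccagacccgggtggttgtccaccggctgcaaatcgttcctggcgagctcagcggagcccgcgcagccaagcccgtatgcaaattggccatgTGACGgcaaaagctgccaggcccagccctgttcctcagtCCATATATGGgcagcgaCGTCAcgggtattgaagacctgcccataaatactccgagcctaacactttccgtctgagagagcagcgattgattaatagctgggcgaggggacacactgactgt
The Klf4 window at chr4:55532426-55532725 on the minus strand and the Cebpa window at chr7:35119043-35119342 on the plus strand are shown because they held the letters GCGNGGGCG, an EGR binding motif, or its reverse complement, in capitals.
Klf4: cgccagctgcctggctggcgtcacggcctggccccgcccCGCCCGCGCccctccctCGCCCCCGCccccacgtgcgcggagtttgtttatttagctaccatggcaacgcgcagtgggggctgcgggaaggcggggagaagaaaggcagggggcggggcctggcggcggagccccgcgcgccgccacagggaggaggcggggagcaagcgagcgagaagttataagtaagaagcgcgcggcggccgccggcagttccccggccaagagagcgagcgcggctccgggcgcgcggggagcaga
Cebpa: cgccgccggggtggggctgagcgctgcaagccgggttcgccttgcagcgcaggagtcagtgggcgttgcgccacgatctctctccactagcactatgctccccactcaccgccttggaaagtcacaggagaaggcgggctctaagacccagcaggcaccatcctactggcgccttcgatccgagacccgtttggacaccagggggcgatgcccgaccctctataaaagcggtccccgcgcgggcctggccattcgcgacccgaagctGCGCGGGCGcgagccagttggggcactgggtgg
The EGR motif occurred 2 times in the Klf4 window, where both copies overlapped a GC box (GGGCGG), and 1 time in the Cebpa window. Searched on both strands, 5.55% of all 32851 promoter windows held the EGR motif, 35.7% the GC box, 20.8% the TGACG core and 1.63% a CArG box. Of the windows not shown, that of Klf6 held 1 GC box, that of Cebpb 3 copies of the TGACG core and 5 GC boxes, and that of Klf2 1 EGR motif, 1 TGACG core and 2 GC boxes. The Egr2 window at chr10:67535249-67535548 held 0 CArG boxes, 0 TGACG cores and 4 GC boxes. That at chr10:67537316-67537615 held 1 CArG box, 0 TGACG cores and 1 GC box. The Egr2 windows starting at 67537620 and 67537680 each held 1 CArG box and 2 TGACG cores. The Klf4 window also held, in all, 1 TGACG core and 4 GC boxes. A match describes letters in a window, and no binding was measured here.

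Each probe gives a normalized intensity, brought to a common distribution between arrays, and intensities of different genes are not compared because probes differ in response. Log2 fold changes were taken after an offset of 50 was added, so they understate the change of dim genes, and folds are ratios of mean normalized intensities without the offset. A gene was called at an adjusted p under 0.05 in limma over all 26423 probes. No source used here says whether the 2 replicates of a group were separate cultures, so the p-values speak of array-to-array spread alone, which may be technical. Replicates correlated at 0.9949 to 0.9963, and the 75th percentile of the arrays as deposited ran from 209 to 319. Dab2, read by 1 probe, gave 91.1 and 88.1 in shLuc cells with PBS against 59.1 and 76.0 in shDab2 cells, and 52.2 and 72.4 against 39.1 and 34.8 with LPS. On this normalized scale the shDab2 arrays lay below the shLuc arrays under both treatments, and neither difference passed the test (log2 fold change -0.25, adjusted p = 0.26, and -0.36, adjusted p = 0.0577). The study reported lower Dab2 protein in the clone B line by Western blot, and the arrays do not measure protein. With the intensities as deposited, the PBS arrays of the lines overlapped for Dab2 (86 and 87 against 73 and 96, log2 fold change -0.027, adjusted p = 0.915). The value with LPS was called in 5 of 18 alternatives, one of them without replicate 1 of shLuc LPS (-0.50, adjusted p = 0.0318), and was -0.24 (adjusted p = 0.251) as deposited. Of the macrophage markers 7 of 7 measured reached 50 on every array, with summed intensities from 53324 to 86701. Both ends of that range were the 2 shLuc LPS arrays, on which Cd14 was at 51011 (replicate 1) and 19250 (replicate 2). In contrast, 0 of 5 fibroblast markers reached 50 on any array, Pdgfra, Dcn and the collagen genes among them. Under that level, Col1a1 and Col1a2 were called lower with LPS in shLuc cells (-0.57, adjusted p = 0.00047, and -0.24, adjusted p = 0.0206). The Col1a2 call was lost without any 1 of the 4 shLuc arrays. Col1a1 was also called lower in shDab2 cells with PBS (-0.38, adjusted p = 0.0171), a call lost in 4 of 16 alternatives. Among these were the fits without replicate 2 of shLuc PBS (-0.33) and without replicate 1 of shDab2 PBS (-0.30). The part of Col1a1 and Col1a2 in the results was not tested. T cell markers summed to between 76.0 and 136, with only Cd3e at 50 or more on all arrays, B cell markers to between 57.2 and 122, and granulocyte markers to between 142 and 257, with only Ltf at 50 or more on all arrays. Cd79a, a B cell marker, was called with LPS in shDab2 cells (log2 fold change 0.54, adjusted p = 0.00818), and its part in the results was not tested. The Cd79a call was lost in 4 of 18 alternatives, among them without replicate 1 of shDab2 PBS (0.48) or of shDab2 LPS (0.39). Reference genes were not level: Sdha fell by 0.50 with LPS in shLuc cells (adjusted p = 3.97e-05) and by 0.66 in shDab2 cells (adjusted p = 2.65e-06), and Rplp0 was higher by 0.59 in shDab2 cells with LPS (adjusted p = 0.000203), on the log2 scale.

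The first question was which of these factors responded to LPS in control cells and in shDab2 cells. In shLuc cells, LPS raised Cebpb, Cebpd, Klf6, Egr1 and Egr2 and lowered Klf4, so 6 of the 9 were called, beside 23.3% of all probes and 48.1% of the 11743 probes that reached 50 on both arrays of a group. In shDab2 cells, the same 5 rose and Klf4 and Cebpa fell, 7 of 9, beside 26.9% of all probes and 56.3% of the brighter ones. The median log2 fold change of the set was 0.60 in shLuc and 0.37 in shDab2 cells, while that of all genes was -0.0038 and -0.0018. In bulk RNA, fewer cells with a high level and less RNA per cell cannot be told apart.

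The second question was which factors differed between shDab2 and shLuc cells. With PBS, Egr2, Klf6 and Egr1 were higher and Klf4 was lower in shDab2 cells, 4 of 9, beside 9.98% of all probes and 21.5% of the brighter ones. With LPS, Egr2, Klf6 and Cebpb were higher and Klf4 and Cebpa were lower, 5 of 9, beside 17.5% of all probes and 36.6% of the brighter ones. The LPS response itself differed between the lines for Klf6, Cebpa and Egr2, 3 of 9, beside 4.78% of all probes and 10.4% of the brighter ones. These comparisons share arrays: both comparisons within a line use its PBS arrays that also enter the comparison between lines, so they are not independent of each other. On the log2 scale with the offset, which shrinks the ratios of dim genes most, 1 value between the lines lay past 1.5 in size, Egr2 with PBS.

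**Figure D1:**
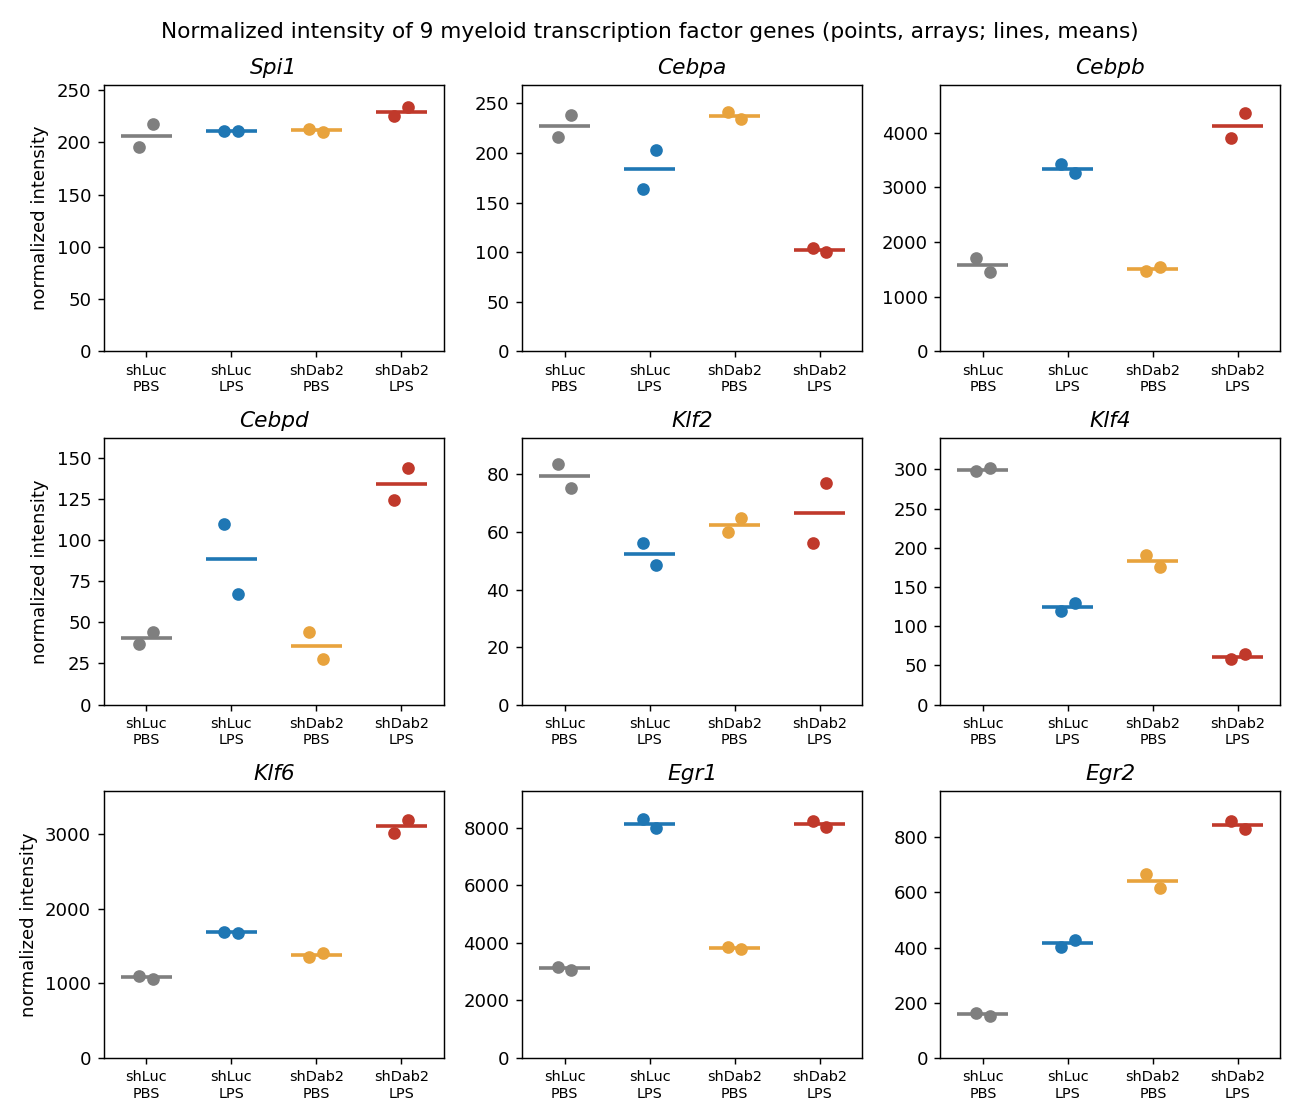
Normalized intensity (vertical axis, linear from 0, a separate scale for each gene) of the 9 genes in the 4 groups; points are the 2 arrays of a group and lines their mean. Egr2 steps up from shLuc PBS (153 and 164) through shLuc LPS and shDab2 PBS to shDab2 LPS (831 and 857), Klf4 was highest in shLuc PBS (298.0 and 301.7) and lowest in shDab2 LPS (58.1 and 64.1), and the Spi1 arrays lie between 195 and 233.

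Spi1 encodes PU.1, the ETS factor required for macrophage identity, and lies at chr2:91082374-91115759 (GRCm38). Its normalized intensity was 195.3 and 217.0 in shLuc cells with PBS, 210.4 and 210.6 in shLuc cells with LPS, 212.9 and 209.8 in shDab2 cells with PBS, and 224.8 and 233.2 in shDab2 cells with LPS. The shDab2 arrays with LPS were above the other 6, and the other groups overlapped. No comparison was called. The log2 fold change with LPS was 0.03 in shLuc cells (95% interval -0.14 to 0.19, limma adjusted p = 0.871) and 0.09 in shDab2 cells (-0.07 to 0.26, adjusted p = 0.454). Between the lines it was 0.03 with PBS (-0.13 to 0.19) and 0.10 with LPS (-0.07 to 0.26). The direction for Spi1 rests on the scaling: with the intensities as deposited, the LPS value was -0.31 in shDab2 cells (adjusted p = 0.00951) and the value between the lines with PBS was 0.30 (adjusted p = 0.0146).

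Cebpa encodes C/EBP alpha, which drives commitment of progenitors to granulocytes and monocytes and restrains proliferation, and lies at chr7:35119293-35121928. Its intensity was 215.6 and 238.0 in shLuc cells with PBS and 164.0 and 202.9 with LPS. In shDab2 cells it was 240.9 and 234.6 with PBS, but 103.9 and 100.2 after LPS. The shDab2 arrays with LPS were thus below every other array, and the lines overlapped with PBS. LPS lowered Cebpa 2.33-fold in shDab2 cells (log2 fold change -0.92, SE 0.09, limma adjusted p = 1.35e-05), and in shLuc cells the value was -0.25 (SE 0.09, adjusted p = 0.0815). With LPS, Cebpa was 1.80-fold lower in shDab2 than in shLuc cells (-0.61, adjusted p = 0.000775), and with PBS the difference was 0.06 (95% interval -0.15 to 0.26, adjusted p = 0.828). The difference between the responses was -0.67 (SE 0.13, adjusted p = 0.0135). That call was lost in 3 of 17 alternatives: a floor of 50 in place of the offset (-0.91, adjusted p = 0.112), without replicate 1 of shLuc PBS (-0.61, adjusted p = 0.0713) and without replicate 1 of shDab2 PBS (-0.64, adjusted p = 0.0597), and the value in shLuc cells was called in 3 of 18, among them without replicate 2 of shLuc LPS (-0.37, adjusted p = 0.0247) and with the intensities as deposited (-0.47, adjusted p = 0.00359).

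Cebpb, at chr2:167688915-167690432, encodes C/EBP beta, which binds the promoters of cytokine genes in activated macrophages. Its intensity was 1710.1 and 1445 in shLuc cells with PBS, 3420.5 and 3257 with LPS, 1480 and 1537 in shDab2 cells with PBS, and 3900 and 4355 with LPS. Every LPS array was above every PBS array, and the shDab2 arrays with LPS were above the shLuc arrays with LPS. LPS raised Cebpb 2.12-fold in shLuc cells (log2 fold change 1.06, SE 0.08, limma adjusted p = 2.49e-06) and 2.74-fold in shDab2 cells (1.42, SE 0.08, adjusted p = 1.26e-07). Between the lines it differed by 0.30 with LPS (adjusted p = 0.0251) and by -0.06 with PBS (adjusted p = 0.79). The call with LPS was lost in 5 of 18 alternatives: with a floor of 50 (0.30, adjusted p = 0.218), with no variance trend (adjusted p = 0.057), without either shLuc LPS array (0.34, adjusted p = 0.0558, without replicate 1, and 0.26, adjusted p = 0.136, without replicate 2) and without replicate 2 of shDab2 LPS (0.22, adjusted p = 0.181). The difference between the responses, 0.36 (95% interval 0.11 to 0.61), was not called (adjusted p = 0.123), but it was without replicate 2 of shLuc PBS (0.48, adjusted p = 0.0343).

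Cebpd, at chr16:15887286-15889545, encodes C/EBP delta, an acute-phase factor that is low at rest. Its intensity was 36.9 and 44.1 in shLuc cells with PBS and 43.9 and 27.8 in shDab2 cells with PBS, all under 50, a level near background. With LPS it was 109.6 and 67.1 in shLuc cells and 124.2 and 143.6 in shDab2 cells, above every PBS array. Taking 50 as the level of the PBS arrays, LPS raised Cebpd at least 1.72-fold in shLuc cells and at least 2.67-fold in shDab2 cells. The fitted log2 fold changes were 0.60 (SE 0.15, limma adjusted p = 0.0132) and 1.10 (SE 0.15, adjusted p = 0.000152). The first call was lost in 3 of 18 alternatives, among them without replicate 1 of shLuc PBS (0.54) or replicate 1 of shLuc LPS (0.38). Neither the difference between the lines with LPS (0.43, adjusted p = 0.0816) nor that between the responses (0.51, adjusted p = 0.269) was called, and the former was called without replicate 1 of shLuc LPS (0.65, adjusted p = 0.0151).

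Among the partners of these proteins, 5 of 6 listed genes were measured: Cebpe, Cebpg, Ddit3, Batf and Atf4. LPS raised 1 and lowered 0 in shLuc cells, and raised 2 and lowered 1 in shDab2 cells. Ddit3, which encodes CHOP, a C/EBP homologue of the stress response that dimerizes with other C/EBP proteins, rose by 0.95 in shLuc cells (adjusted p = 7.79e-07) and by 1.52 in shDab2 cells (adjusted p = 9.04e-09) on the log2 scale. With PBS, Ddit3 was lower in shDab2 cells (-0.55, adjusted p = 0.00026), at 314 and 316 against 508 and 463. Atf4, a bZIP factor of the amino acid response, was called in shDab2 cells (0.58, adjusted p = 0.000485), as was Cebpe (-0.39, adjusted p = 0.0329), a granulocyte factor that stayed under 50 on all 8 arrays. The Cebpe call ended without either shDab2 PBS array (-0.30 without replicate 1 and -0.46 without replicate 2) and without replicate 1 of shDab2 LPS (-0.31). Between the lines, 0 of the 5 were higher and 2 lower with PBS, and 0 of 5 were called with LPS. Beside these counts, 9.98% and 17.5% of all probes and 21.5% and 36.6% of the brighter ones were called.

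Klf2, at chr8:72319062-72321654, encodes a factor that restrains the activation of monocytes. Its intensity was 83.8 and 75.4 in shLuc cells with PBS, 56.0 and 48.6 with LPS, 60.0 and 64.8 in shDab2 cells with PBS, and 56.0 and 77.1 with LPS. In shLuc cells the LPS arrays were below the PBS arrays, and in shDab2 cells they overlapped. The log2 fold change with LPS was -0.34 in shLuc cells (95% interval -0.59 to -0.09, limma adjusted p = 0.0504) and 0.05 in shDab2 cells (-0.20 to 0.30, adjusted p = 0.849). The former lay at the threshold and was called in 9 of 18 alternatives, with adjusted p from 0.0122 to 0.234 over all 18, among them without either shDab2 LPS array (-0.35, adjusted p = 0.0226, without replicate 1, and -0.34, adjusted p = 0.0234, without replicate 2). No other comparison of Klf2 was called, and the difference between the responses was 0.39 (0.04 to 0.74, adjusted p = 0.257).

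Klf4, at chr4:55527137-55532475, encodes a factor that promotes monocyte differentiation and takes part in macrophage polarization. Its intensity was 298.0 and 301.7 in shLuc cells with PBS and 118.9 and 130.2 after LPS. The shDab2 arrays had 190.5 and 175.2 with PBS, and 58.1 and 64.1 after LPS. The 4 groups did not overlap, and their order was shLuc PBS, shDab2 PBS, shLuc LPS and shDab2 LPS from high to low. LPS lowered Klf4 2.41-fold in shLuc cells (it fell by 1.00 on the log2 scale, SE 0.08, limma adjusted p = 4.39e-06) and 2.99-fold in shDab2 cells (-1.07, SE 0.08, adjusted p = 1.54e-06). In shDab2 cells it was 1.64-fold lower than in shLuc cells with PBS (-0.59, adjusted p = 0.00102) and 2.04-fold lower with LPS (-0.65, adjusted p = 0.000232). The difference between the responses was -0.06 (95% interval -0.32 to 0.19, adjusted p = 0.863). All 4 calls of Klf4 held under the 18 alternatives run for each.

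Klf6, at chr13:5861489-5870393, encodes a factor that cooperates with NF-kB at inflammatory genes. Its intensity was 1092 and 1064 in shLuc cells with PBS, 1687 and 1682 with LPS, 1348 and 1409 in shDab2 cells with PBS, and 3023 and 3196 after LPS. The 4 groups did not overlap, and the order from low to high was shLuc PBS, shDab2 PBS, shLuc LPS and shDab2 LPS, the reverse of that of Klf4. LPS raised Klf6 1.56-fold in shLuc cells (log2 fold change 0.62, SE 0.05, limma adjusted p = 8.01e-06) and 2.26-fold in shDab2 cells (1.15, SE 0.05, adjusted p = 3.08e-08). Between the lines it was 1.28-fold higher in shDab2 cells with PBS (0.34, adjusted p = 0.00252) and 1.85-fold higher with LPS (0.86, adjusted p = 1.86e-06). The response in shDab2 cells exceeded that in shLuc cells by 0.52 (SE 0.08, adjusted p = 0.0029), and over the 17 alternatives this value ran from 0.44 to 0.62 and stayed called.

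Of the other KLF and Sp genes, 17 of 18 were measured. LPS raised 1 and lowered 6 of them in shLuc cells, with a median log2 fold change of -0.17 against -0.0038 over all genes, and raised 2 and lowered 7 in shDab2 cells, with a median of -0.053 against -0.0018. Klf10, which is induced by TGF-beta, fell by 1.00 in shLuc cells (limma adjusted p = 1.86e-05) and by 1.18 in shDab2 cells (adjusted p = 2.86e-06). Klf7 rose by 0.89 (adjusted p = 4.09e-06) and by 1.28 (adjusted p = 1.22e-07). Between the lines 1 gene was higher and 2 were lower with PBS, and 3 were higher and 4 lower with LPS. The shares called were 9.98% and 17.5% of all probes and 21.5% and 36.6% of the brighter ones. Klf9, a target of glucocorticoid signaling, was lower in shDab2 cells with PBS (-0.55, adjusted p = 0.000716) and with LPS (-0.85, adjusted p = 1.46e-05), and its intensity with LPS was 378 and 349 against 721 and 668.

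**Figure D2:**
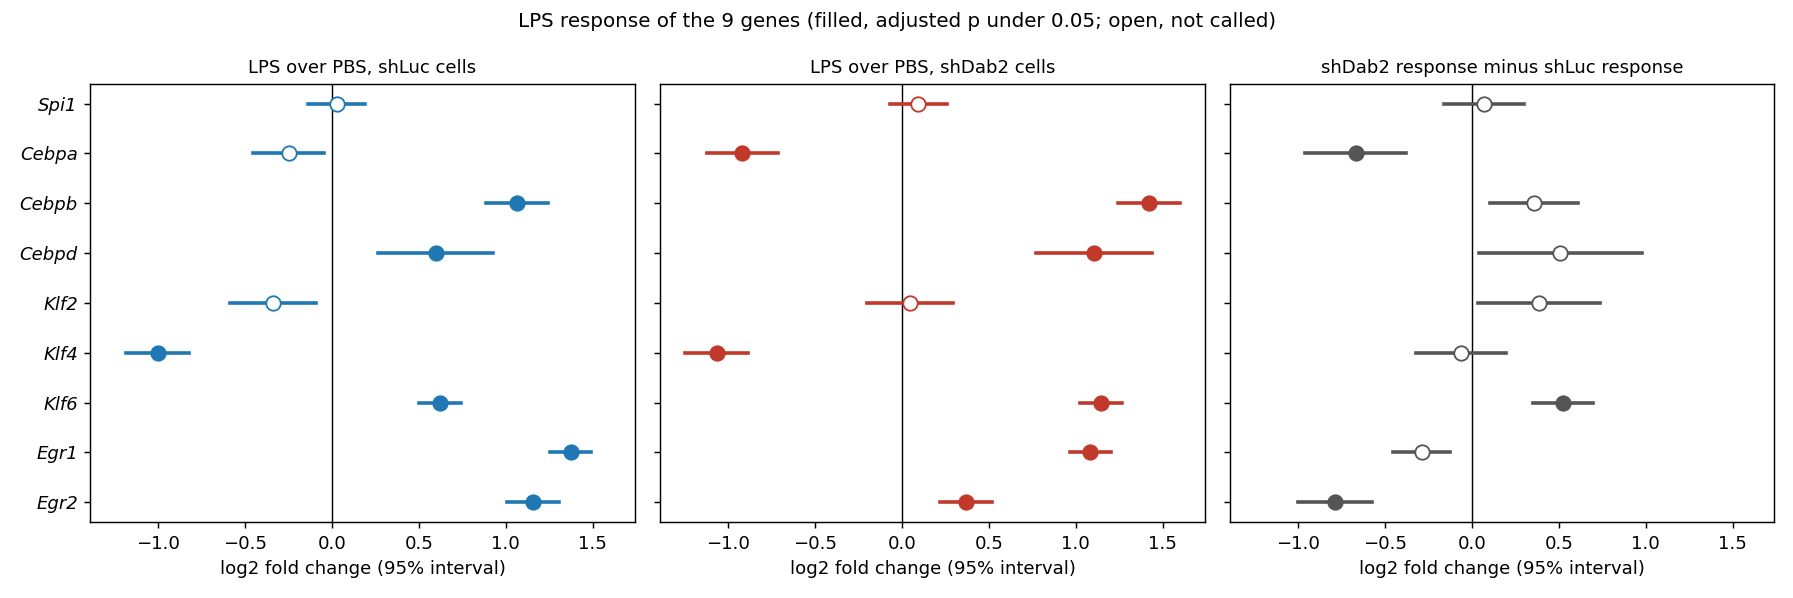
Log2 fold change (horizontal axis, points with 95% intervals from limma) of the 9 genes with LPS in shLuc cells, with LPS in shDab2 cells, and of the difference between these responses; filled points were called. Cebpa (-0.67), Klf6 (0.52) and Egr2 (-0.79) are the filled points among the differences.

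Egr1 encodes an immediate-early factor of receptor signaling. Its intensity was 3155 and 3067 in shLuc cells with PBS, 8298 and 7983 with LPS, 3844 and 3780 in shDab2 cells with PBS, and 8253 and 8021 after LPS. The LPS arrays of the lines overlapped, whereas the PBS arrays of shDab2 cells were above those of shLuc cells. LPS raised Egr1 2.62-fold in shLuc cells (log2 fold change 1.37, SE 0.05, limma adjusted p = 1.04e-08) and 2.13-fold in shDab2 cells (1.08, SE 0.05, adjusted p = 3.63e-08). Between the lines Egr1 was 1.23-fold higher in shDab2 cells with PBS (0.29, adjusted p = 0.00536), and with LPS the interval of the difference was -0.12 to 0.12 (adjusted p = 0.999). The difference between the responses was -0.29 (95% interval -0.46 to -0.12), just outside the threshold (adjusted p = 0.0548), and with the intensities as deposited it was -0.38 (adjusted p = 0.0103).

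Egr2, at chr10:67534469-67542188, encodes a factor that marks alternatively activated macrophages in mice and is held in check by the NAB corepressors. Its intensity was 163.8 and 152.8 in shLuc cells with PBS and 402.6 and 427.1 after LPS. The shDab2 arrays had 667.7 and 616.4 with PBS, and 857.1 and 830.9 after LPS. The shDab2 arrays with PBS were already above the shLuc arrays with LPS, and the 4 groups did not overlap. Egr2 was 4.06-fold higher in shDab2 than in shLuc cells with PBS (log2 fold change 1.73, SE 0.07, limma adjusted p = 1.41e-07), which ranked 20 of 26423 probes from the highest. With LPS it was 2.03-fold higher (0.94, SE 0.07, adjusted p = 3.95e-06). LPS raised Egr2 2.62-fold in shLuc cells (1.16, adjusted p = 2.96e-07) and 1.31-fold in shDab2 cells (0.37, adjusted p = 0.00137). The latter response was thus smaller by 0.79 (SE 0.10, adjusted p = 0.000815), and this ranked 114 from the lowest of all probes. With the intensities as deposited, the response in shDab2 cells was 0.0070 (adjusted p = 0.96) and its call ended, while the difference between the responses was called under each of the 17 alternatives, from -0.99 to -0.72.

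**Figure D3:**
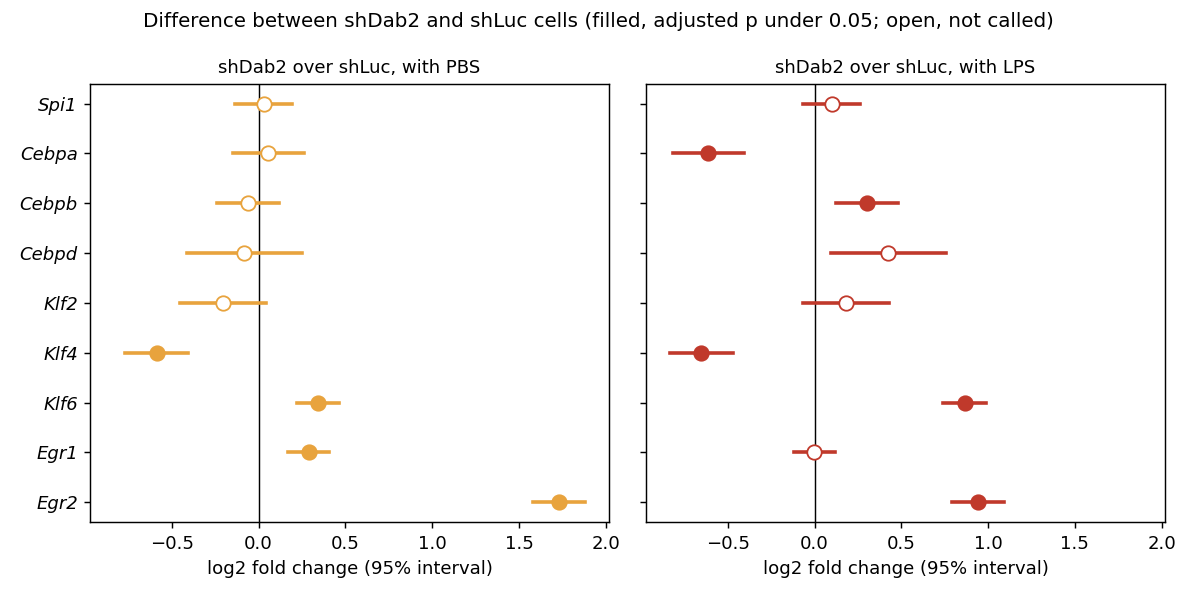
Log2 fold change of shDab2 over shLuc cells (horizontal axis, points with 95% intervals from limma) for the 9 genes with PBS and with LPS; filled points were called. Egr2 (1.73 and 0.94) and Klf6 (0.34 and 0.86) lie to the right of 0 and Klf4 (-0.59 and -0.65) to the left under both treatments, while Cebpa (-0.61) is called with LPS.

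The related EGR, NAB and immediate-early genes were all measured, 11 of 11. LPS raised 6 and lowered 0 in shLuc cells (median log2 fold change 0.43), and raised 5 and lowered 2 in shDab2 cells (median 0.30). Nab2, a corepressor that EGR proteins induce and that binds them, was at 206 and 210.5 in shLuc cells with PBS, 527 and 522 with LPS, 249 and 306 in shDab2 cells with PBS, and 476 and 447 with LPS. It rose by 1.15 in shLuc cells (limma adjusted p = 1.87e-06) and by 0.65 in shDab2 cells (adjusted p = 0.000109, but 0.23 and 0.0566 with the intensities as deposited), and the difference between these responses was -0.51 (adjusted p = 0.0362), a call that ended in 10 of the 17 alternatives. These were, among others, each array left out in turn other than replicate 1 of shDab2 PBS, with values from -0.55 to -0.38. Between the lines, 1 gene was higher and 2 were lower with PBS, beside 9.98% of all probes and 21.5% of the brighter ones. With LPS 3 were higher and 3 lower, beside 17.5% and 36.6%. Fos, a subunit of AP-1, was lower in shDab2 cells with PBS (-0.66, adjusted p = 7.11e-05) and with LPS (-0.38, adjusted p = 0.00122), at 863 and 814 against 1290.5 and 1416 with PBS. Ier2, an immediate-early gene, was also lower in shDab2 cells with PBS (-0.40, adjusted p = 0.00181), but higher there with LPS (0.29, adjusted p = 0.00686). Ier2 rose by 1.05 with LPS in shLuc cells (adjusted p = 3.16e-07) and by 1.75 in shDab2 cells (adjusted p = 2.63e-09). Nr4a1, an orphan nuclear receptor, rose by 1.48 in shDab2 cells (adjusted p = 3.41e-07) and was higher there than in shLuc cells with LPS (0.85, adjusted p = 9.2e-05). With LPS, the direction between the lines therefore differed from one immediate-early gene to the next.

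**Figure D4:**
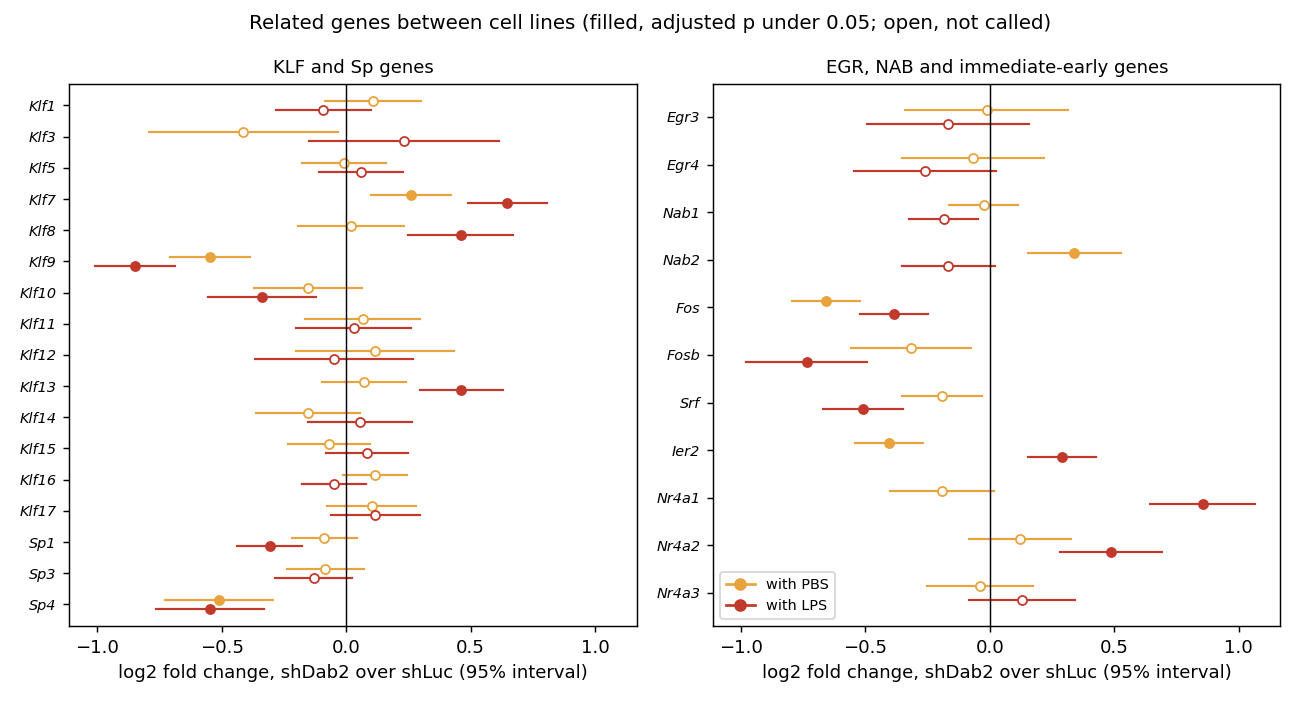
Log2 fold change of shDab2 over shLuc cells (horizontal axis, points with 95% intervals from limma) with PBS and with LPS for 17 KLF and Sp genes and 11 EGR, NAB and immediate-early genes; filled points were called. Klf9 (-0.55 and -0.85) and Fos (-0.66 and -0.38) are lower in shDab2 cells under both treatments, and Nr4a1 (0.85) is higher with LPS.

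Other transcription factors of myeloid cells were listed as well, 22 of 23 measured. LPS raised 6 and lowered 5 in shLuc cells, beside 23.3% of all probes and 48.1% of the brighter ones. In shDab2 cells it raised 7 and lowered 6, beside 26.9% of all probes and 56.3% of the brighter ones. The counts of this list are near the shares of the brighter probes and above those of all probes. Of its 22 genes, 6 were under 50 on all arrays, so the list is not matched to the brighter probes. The LPS counts of the other lists are likewise to be read against both shares. Irf8, a partner of PU.1, rose by 1.19 in shLuc cells (limma adjusted p = 1.59e-07) and by 1.45 in shDab2 cells (adjusted p = 1.63e-08). With PBS, Irf8 was lower in shDab2 cells (-0.45, adjusted p = 0.00112), at 187 and 176 against 260 and 274. Its difference between the lines with LPS, -0.20, was not called (adjusted p = 0.0615). Ets2, an ETS factor downstream of MAP kinases, rose by 1.27 in shLuc cells (adjusted p = 1.99e-06) and by 1.43 in shDab2 cells (adjusted p = 4.12e-07), and the difference between these responses, 0.16, was not called (adjusted p = 0.647). Between the lines, 5 were higher and 1 was lower with PBS, beside 9.98% of all probes and 21.5% of the brighter ones. With LPS 7 were higher and 1 lower, beside 17.5% and 36.6%. Id2, an inhibitor of basic helix-loop-helix factors, was higher in shDab2 cells by 0.77 with PBS (adjusted p = 0.000317) and by 1.24 with LPS (adjusted p = 4.18e-06), at 3405 and 3798 against 1561 and 1431.

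Known targets of PU.1 and C/EBP proteins in macrophages were measured for 20 of 22 genes, several of which are also macrophage markers. LPS raised 9 and lowered 4 of them in shLuc cells (median log2 fold change 0.22) and raised 12 and lowered 3 in shDab2 cells (median 0.79). In shDab2 against shLuc cells, 7 were higher and 2 lower with PBS, beside 9.98% of all probes and 21.5% of the brighter ones. With LPS 14 were higher and 2 lower (median 0.38 against -0.0070 over all genes), beside 17.5% and 36.6%. Fcgr2b, an inhibitory Fc receptor, rose by 2.43 in shLuc cells (limma adjusted p = 1.29e-09) and by 3.91 in shDab2 cells (adjusted p = 1.65e-11), at 2693 and 2535 in shDab2 cells with LPS against 1143 and 1257 in shLuc cells. Slc11a1, a metal transporter of phagosomes, rose by 2.07 (adjusted p = 2.78e-08) and by 2.56 (adjusted p = 2.54e-09). Adgre1, which encodes F4/80, was higher in shDab2 cells by 1.46 with PBS (adjusted p = 1.15e-06) and by 2.08 with LPS (adjusted p = 5.12e-08). Csf1r, the receptor of macrophage colony-stimulating factor, moved the other way: it fell by 0.44 with LPS in shLuc cells (adjusted p = 0.000821) and by 0.84 in shDab2 cells (adjusted p = 3.61e-06), and with LPS it was lower in shDab2 cells (-0.64, adjusted p = 9.84e-05). No comparison of Spi1 was called, whereas Cebpa (-0.61) and Cebpb (0.30) were called between the lines with LPS. The part of these factors in the target levels was not tested.

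The genes whose log2 values followed each factor most closely over the 8 arrays, among 9826 genes compared, are given as a description, since the arrays share the 4 groups. Egr2 was followed by Bhlhe40 (Pearson r = 0.991), Mex3c and Map2k4, and Bhlhe40 had 356 and 349 in shLuc cells with PBS against 771 and 698 in shDab2 cells. Klf6 was followed by Ms4a6d (r = 0.998), Jade2 and Crem. Klf4 was followed by Phf5a (r = 0.998), Rad54b and Mcm10, the last at 1864 and 1896 in shLuc cells with PBS and at 879 and 904 in shDab2 cells with LPS. Rhoc (r = 0.998), Cxcl2 and Bcl6b followed Egr1, Zfp36 (r = 0.996), Gramd1a and Ell2 followed Cebpb, Spen (r = 0.989), Zfp628 and Ccdc71l followed Cebpd, and Prpsap2 (r = 0.986), Rhobtb2 and Kbtbd4 followed Cebpa. Within the set, Klf4 and Klf6 had r = -0.97, Cebpb and Egr1 had r = 0.96, and Egr1 and Egr2 had r = 0.60.

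**Figure D5:**
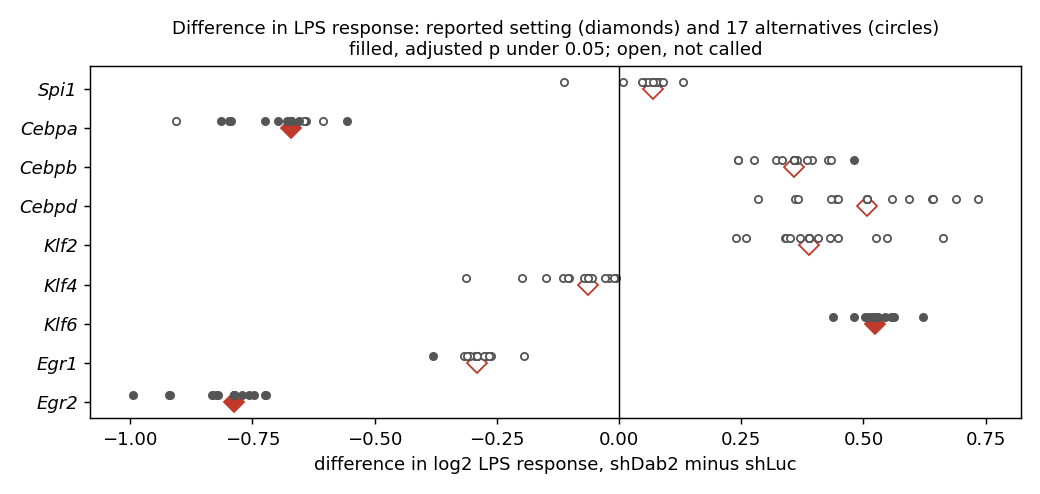
Difference in log2 LPS response between shDab2 and shLuc cells (horizontal axis) for the 9 genes under the reported setting (diamonds) and 17 alternatives (circles); filled symbols were called. Klf6 (0.44 to 0.62) and Egr2 (-0.99 to -0.72) are filled throughout, and Cebpa is open under 3 of the alternatives.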

How the data were processed

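RNA was labelled and hybridized to 8 one-colour Phalanx OneArray mouse arrays. The deposited table holds background-subtracted linear intensities of 26423 probes for each array; the authors' normalization between arrays is not given in the sources used here, and the array medians of these values differ (20 to 37), so they were not brought to a common median or distribution. A table of intensities averaged over each group was not used. Gene symbols came from the platform annotation (21876 probes with 1 symbol, 4547 with none). Positions are those of RefSeq for GRCm38.

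Arrays were brought to a common distribution by quantile normalization, an offset of 50 was put on every value before log2; a change in total RNA per cell cannot be seen. Each probe was fitted in limma 3.58.1 (R 4.3.3) with 1 mean per group over all arrays (4 residual degrees of freedom, prior 6.70, trended variance), two-sided, with Benjamini-Hochberg adjustment over 26423 probes. The procedure was tested on simulated data. A gene is represented by its brightest probe. Precision is limited by the number of arrays.

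The 9 genes and the lists were chosen with earlier results of these data known. Named were the 9 genes, Dab2, up to 3 called genes of each list with the largest change, and the 3 genes most correlated with each called factor; Fos, Csf1r, Itgam, Maf, Mitf, Fcgr3, Cd68, Col1a1 and Col1a2 were chosen after their values were seen. Alternatives were other scalings, offsets, filters, variance models, a replicate block, and each array left out.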

Additional observations from a re-analysis of the deposited data

Results flagged for a closer look

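The LPS response differed between shDab2 and shLuc cells, by the interaction term in limma, for 3 of the 9 factors, and for several genes of the lists; each value is the response in shDab2 cells minus that in shLuc cells on the log2 scale. Among the factors the difference was -0.79 for Egr2 (SE 0.10, adjusted p = 0.000815), -0.67 for Cebpa (SE 0.13, adjusted p = 0.0135) and 0.52 for Klf6 (SE 0.08, adjusted p = 0.0029). Among C/EBP partners it was 0.56 for Ddit3 (adjusted p = 0.00407) and 0.53 for Atf4 (adjusted p = 0.044). Both were called lower in shDab2 cells with PBS (-0.55 and -0.51). With LPS the lines differed by 0.011 and 0.024, not called. Neither difference in response was run under the alternatives, nor were those of Nr4a1, Ier2, Fcgr2b, Adgre1 and Itgam given below. Among immediate-early genes the difference in response was 1.05 for Nr4a1 (adjusted p = 0.0011), 0.70 for Ier2 (adjusted p = 0.00098) and -0.51 for Nab2 (adjusted p = 0.0362). Among other myeloid factors 2 were called, both higher, Maf (0.64, adjusted p = 0.00452) and Mitf (0.64, adjusted p = 0.00753). Maf was under 50 on every array. The Mitf difference ran from 0.52 to 0.74 over 17 alternatives, and its call was lost in 1, a floor of 50 (adjusted p = 0.14). Beside 4.78% of all probes and 10.4% of the brighter ones, 8 of 20 measured PU.1 and C/EBP targets were called higher and 2 lower. Among the former it was 1.49 for Fcgr2b (adjusted p = 1.59e-05), 0.62 for Adgre1 (adjusted p = 0.00763) and 0.56 for Itgam (adjusted p = 0.00602). The 2 with a lower response were Fcgr3 (-0.57, adjusted p = 0.0184) and Cd68 (-0.38, adjusted p = 0.0322). Mean Fcgr3 intensity was nonetheless higher in shDab2 than in shLuc cells, at 651 against 274 with PBS and 210 against 128 with LPS. For Cd68 it was 20607 against 20862 with PBS and 14468 against 19105 with LPS. The calls of Fcgr3 and Cd68 ended in 6 and 11 of 17 alternatives. For Fcgr3 these included leaving out replicate 2 of shLuc PBS, replicate 1 of shLuc LPS, either shDab2 PBS array or replicate 1 of shDab2 LPS (adjusted p from 0.0533 to 0.073), and for Cd68 any 1 array other than replicate 1 of shDab2 LPS (adjusted p from 0.0551 to 0.148).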

How the results depend on the processing

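The counts of called factors stayed within 1.5 times the reported ones under every alternative run. Of 800 values of the 45 results for the 9 factors, 748 kept direction and side of the threshold, 12 lost the call, 22 gained it and 18 changed sign. Without normalization between arrays the split of called factors was 5 higher and 3 lower in shLuc cells with LPS (reported 5 and 1) and 4 and 3 in shDab2 cells (reported 5 and 2); that setting moved the median of all probes by 0.11 for shDab2 against shLuc cells with PBS. Over all probes, calls without normalization were 1535 higher and 5200 lower with LPS in shLuc cells (reported 2642 and 3505; 3266 and 2839 with scaling to the 75th percentile), 1510 and 7401 in shDab2 cells (3126 and 3992), 6411 and 390 between the lines with PBS (1261 and 1375), 3390 and 1454 with LPS (2107 and 2511), and 447 and 1968 for the difference in response (612 and 651). A floor of 50 gave 1263 calls between the lines with PBS (reported 2636), 2826 with LPS (4618) and 567 for the difference (1263), and leaving out 1 PBS array gave 1479 to 1588 between the lines with PBS and, without replicate 1 of shLuc or shDab2 PBS, 794 and 830 for the difference. Sign changes without normalization were, with LPS, Spi1 in shLuc (-0.19) and shDab2 cells (-0.31) and Klf2 in shDab2 cells (-0.16); between the lines with PBS, Cebpb (0.21), Cebpd (0.13) and Klf2 (0.023); with LPS, Egr1 (0.15, and 0.033 with scaling to the 75th percentile); and for the difference in response, Spi1 (-0.11). With single arrays left out, values that crossed 0 ran from -0.036 to 0.086 for Spi1 with LPS in shLuc cells, from -0.086 to 0.18 for Klf2 with LPS in shDab2 cells, and between the lines with PBS from -0.032 to 0.090 for Spi1, from -0.0019 to 0.12 for Cebpa, from -0.18 to 0.059 for Cebpb and from -0.22 to 0.056 for Cebpd, and with LPS from -0.030 to 0.028 for Egr1. None of the reported values behind these was called, and the cause was not tested. With a floor of 50, Cebpd between the lines with PBS, Cebpe in shDab2 cells Col1a1, Col1a2 and the difference in Maf response gave no value, since both groups lay at the floor; the difference in Cebpa response was -0.91 (adjusted p = 0.112).

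Same-numbered arrays deviated together with correlations from -0.060 to 0.106 between groups. These values cannot tell whether same-numbered arrays shared a culture or batch. With a replicate block the counts of called factors were 6, 7, 4, 5 and 3, as without it, and no call of the 9 factors changed. Egr2 between the lines with PBS kept 1.73 (limma adjusted p = 6.26e-07).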
